A study of Mus musculus with 12 samples.

Results

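The enzymes of amino acid catabolism described below are the 40 rows, of 14822 gene symbols in the deposited table, whose symbol is in a list of enzymes that take apart tyrosine, tryptophan, serine, glycine, histidine, proline, ornithine, lysine, the branched chain amino acids and the sulfur amino acids, together with 5 aminotransferases. All 40 were found, and all 40 passed the filter on low values. Liver RNA came from C57BL6/J mice, as 12 libraries in 3 groups of 4. The FGF21 group had the MASH diet and FGF21 at 1 mg per kg per day, the MASH vehicle group had the same diet and saline, and the chow group had chow diet and saline, all treated for 4 weeks. MASH (metabolic dysfunction-associated steatohepatitis) is fatty liver disease with inflammation, and FGF21 is a hormone that liver itself makes and that signals through Klb. The composition of the MASH diet, the age and sex of the mice and the route of the hormone are not stated in the labels. The comparisons ask which of these enzymes differed on the MASH diet and which differed between FGF21 and its vehicle on that diet.

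The liver is the main site where most amino acids are broken down. In several routes an aminotransferase or a lyase first removes the nitrogen, which goes to the urea cycle, and the carbon skeleton then enters the citric acid cycle, gluconeogenesis or ketone body synthesis. The tryptophan route opens with a dioxygenase instead. Several of the first enzymes, such as Tat, Tdo2 and Sds, are textbook targets of glucocorticoids and glucagon, and the kynurenine route from tryptophan is also the liver's route to new NAD. The branched chain amino acids differ, since their first transamination takes place mostly outside hepatocytes and the liver mainly oxidises the resulting keto acids.

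Values are TPM, which are scaled for transcript length and to a common total, so levels can be set beside each other between genes. Fold changes are differences in log2(TPM + 1) from 1 limma fit to 10988 genes, given with the standard error (SE), and this scale makes the change of a low gene look smaller than it is. A gene is called higher or lower where its p, adjusted over all 10988 genes, is under 0.05. The order of the replicates is 1 to 4 wherever 4 values are listed. Because TPM keep no depth, the depth of each library is unknown, and precision rests on the 4 libraries per group. The labels do not state that these 4 came from separate animals, so the p-values measure the spread between these samples. In whole liver, fewer cells of a type and less RNA per cell cannot be told apart.

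The 3 groups differed in more than these enzymes, and FGF21 replicates 1 and 3 stood apart. Their totals fell short of 1000000 TPM by 7968 and 8206, against 1217 in FGF21 replicate 4 and 109.5 to 157.6 in the remaining libraries. Of 14 pancreatic acinar markers 3 were in the table (Cela1, Cela2a and Ctrl), and their summed level was 1036.7 and 1456.4 TPM in these 2 libraries, against 28.4 to 75.2 TPM in the other 10. Hepatocyte markers (11 of 12 in the table) summed to 87924 to 105076 TPM in FGF21 livers, 76601 to 81397 TPM in MASH vehicle livers and 72351 to 93702 TPM in chow livers, with Alb, Apoa1, Ttr and Ahsg the largest of them. Singly, 4 of the 11 were called lower and 1 higher in MASH vehicle than in chow livers, with a median log2 fold change of -0.36. Of 17 macrophage markers tested, 15 were higher in MASH vehicle than in chow livers, with a summed level of 655.7 to 816.9 TPM against 197.9 to 254.3 TPM. In FGF21 livers that sum was 518.6 to 692.1 TPM, and 7 of the 17 were lower and 1 higher than in MASH vehicle livers. Of the other cell types, 9 of 11 stellate cell markers, 7 of 10 endothelial markers and 3 of 3 neutrophil markers were higher in MASH vehicle than in chow livers, and 10 of 10 endothelial markers were higher in FGF21 than in chow livers. Mitochondrial transcripts took 4.26 to 7.45% of the TPM in FGF21 livers, 6.13 to 7.22% in MASH vehicle livers and 9.11 to 12.37% in chow livers, and Mup transcripts (major urinary proteins) 2.68 to 5.47%, 2.78 to 4.39% and 5.92 to 7.33% in the same order. The part of these markers and shares in the results below was not tested.

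On the MASH diet the enzymes of amino acid catabolism were mostly at lower levels. Between MASH vehicle and chow livers 19 of the 40 were called lower and 1, Csad, was called higher, while 20 were not called. Lower calls made up 47.5% of the members, against 7.84% of all genes tested, and higher calls made up 2.5% of the members, against 29.5% of all genes tested. The median log2 fold change was -0.42 over the members and 0.19 over all genes. The 19 were spread over all 9 pathways, with 5 of 5 enzymes of the kynurenine route, 3 of 4 of histidine, 3 of 5 aminotransferases, 2 of 3 of sulfur amino acids, 2 of 10 of the branched chain route, and 1 each for tyrosine, serine and glycine, proline and ornithine, and lysine. In all 19 the 4 MASH vehicle libraries lay below the 4 chow libraries. This separation adds no support, since the calls came from the same libraries, and its share over all genes was not counted. All 20 calls held in each of 12 fits that left out 1 library, apart from Gpt, which lost its call without MASH vehicle replicate 2 (adjusted p = 0.0627) or without chow replicate 2 (adjusted p = 0.0513). The balance over all genes depends on the scaling, with 3242 higher and 861 lower calls on TPM as deposited, 1592 and 1980 after median-of-ratios scaling, and 1683 and 1986 after quantile normalization. Under median-of-ratios scaling 29 members were called lower and 1 higher, against 18% and 14.5% of all genes, and the 10 added were Hpd, Gcsh, Uroc1, Prodh, Aldh4a1, Oat, Bckdha, Hibch, Hibadh and Aldh6a1.

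The FGF21 comparison gave fewer calls. Between FGF21 and MASH vehicle livers 6 of the 40 were called higher (Hpd, Amt, Aldh4a1, Bckdha, Agxt and Cdo1), 1 was called lower (Agxt2), and 33 were not called. Higher calls were 15% of the members, against 6.02% of all genes tested, and lower calls 2.5% of the members, against 4.28% of all genes tested. The median log2 fold change was 0.06 over the members and -0.03 over all genes. These counts rest on single libraries. The number called higher was 9 without FGF21 replicate 1, 4 without FGF21 replicate 4, MASH vehicle replicate 1 or chow replicates 2 or 3, 3 without FGF21 replicate 3, 2 without MASH vehicle replicate 2, and 1 without FGF21 replicate 2 or MASH vehicle replicates 3 or 4. Over all genes the share called higher moved too. Higher calls were 22.5% of members, against 11.6% of all genes, without FGF21 replicate 1, and 10% against 3.86% without FGF21 replicate 4. The 2 shares were close without FGF21 replicate 2 (2.5% and 2.6%) and without MASH vehicle replicates 2 (5% and 4.66%), 3 (2.5% and 2.73%) and 4 (2.5% and 2.94%). In the remaining fits higher calls were 7.5% to 15% of members, against 2.63% to 5.4% of all genes. Agxt alone was called in all 12 of these fits. A fit of only these 2 groups lost 4 of the 7 calls, those of Hpd, Amt, Aldh4a1 and Bckdha (adjusted p 0.0675 to 0.0845). That fit called 3.17% of all genes higher and 2.58% lower.

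Most of the enzymes that were lower in MASH vehicle than in chow livers were also lower in FGF21 than in chow livers. In that comparison 21 of 40 members were called lower and 2, Amt and Csad, higher. That is 52.5% lower, against 14.2% of all genes tested, and 5.0% higher, against 37.8% of all genes tested, with a median log2 fold change of -0.41 over the members and 0.20 over all genes. Over all genes 4153 were called higher and 1560 lower on TPM as deposited, 2551 and 2681 after median-of-ratios scaling, and 2528 and 2628 after quantile normalization. Without FGF21 replicate 1 the number of members called higher was 6, or 15%, against 40.6% of all genes. Both comparisons with chow share the chow libraries, and both comparisons on the diet share the MASH vehicle libraries, so the values below are set side by side. Of the 19 enzymes called lower in MASH vehicle livers, 2 (Agxt and Cdo1) were called higher in FGF21 than in MASH vehicle livers, and 15 were called lower in FGF21 than in chow livers. The summed level of all 40 members was 14600 ± 1348 TPM in FGF21 livers, 12236 ± 1123 TPM in MASH vehicle livers and 16303 ± 526 TPM in chow livers (SD, n = 4 each). Abundant members weigh most in this sum, and Hpd, the largest, averaged 4260, 3038 and 3832.5 TPM in the same order.

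**Figure D1:**
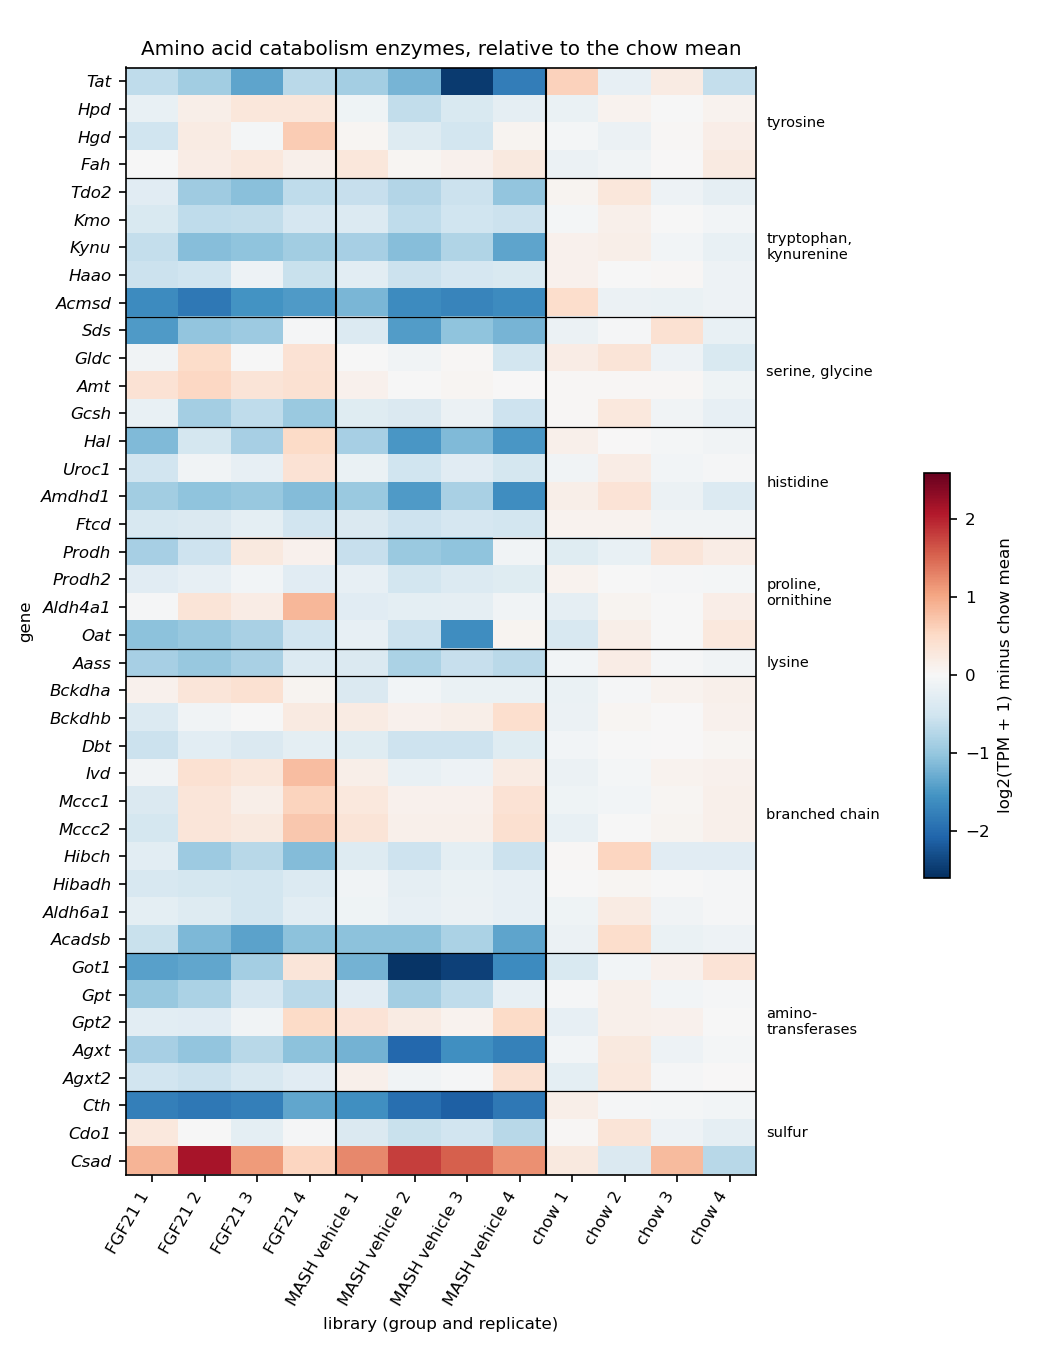
Level of each of the 40 enzymes in each library, as log2(TPM + 1) minus the chow mean of the same gene, with genes down the page grouped by pathway and libraries across it (FGF21, MASH vehicle, chow). Blue is below and red above the chow mean. The blue runs of the kynurenine enzymes, Cth and Agxt cover all 8 libraries on the MASH diet, and Csad is red in all 8.

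**Figure D2:**
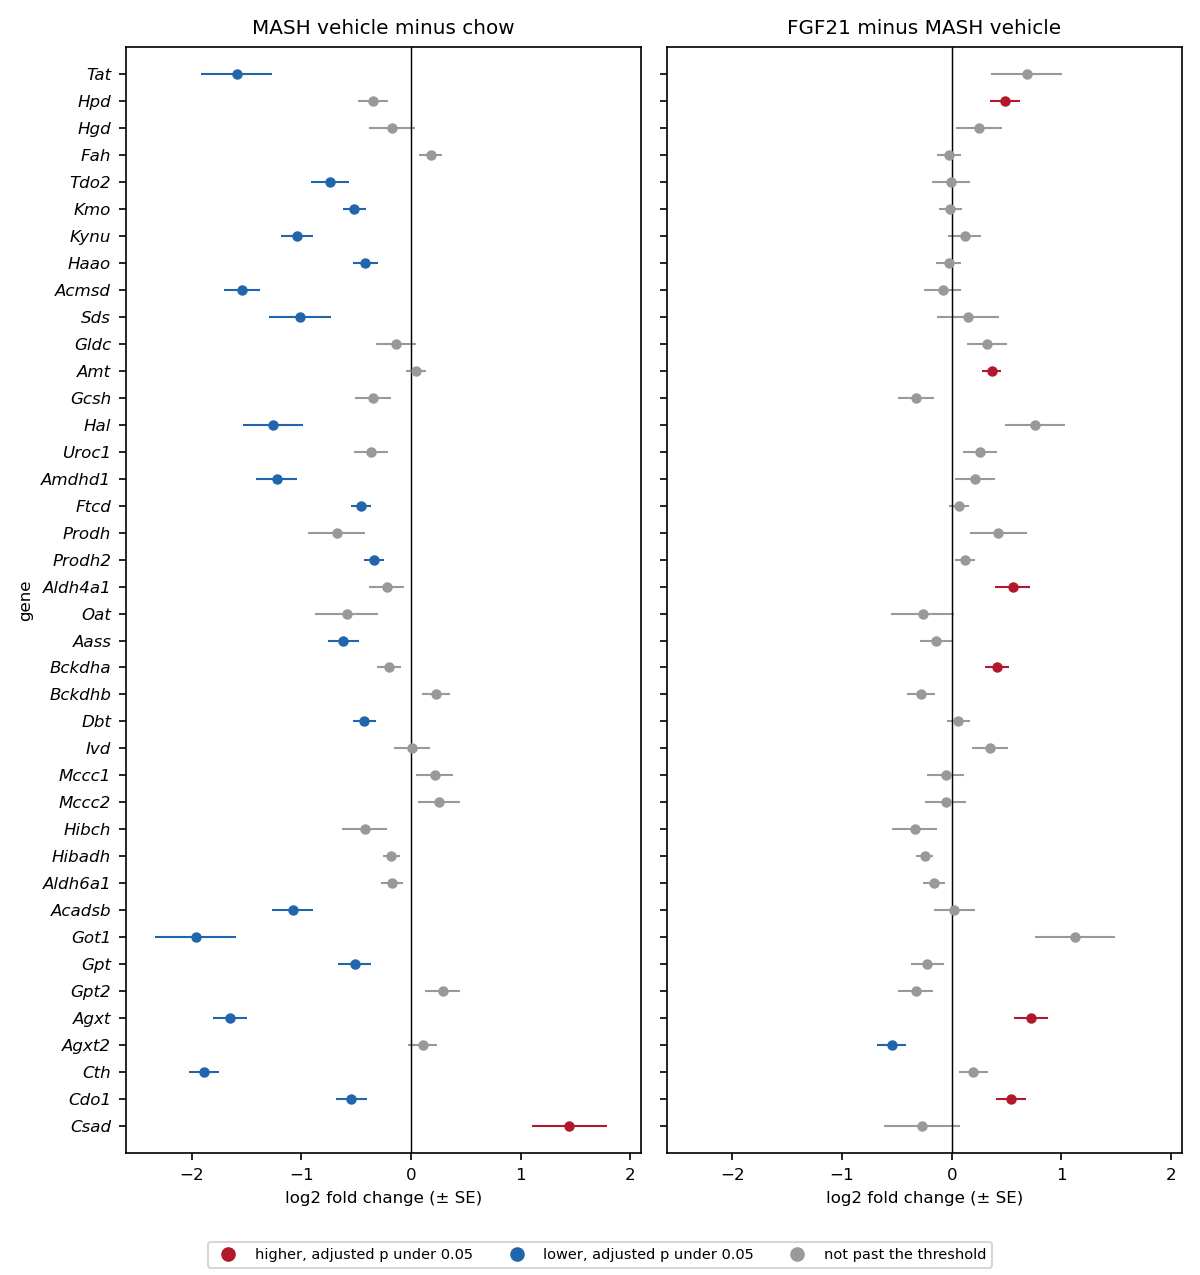
Log2 fold change with its SE for each of the 40 enzymes, for MASH vehicle minus chow on the left and FGF21 minus MASH vehicle on the right, from the limma fit to 12 libraries. Red points were called higher, blue points lower, and grey points did not pass an adjusted p of 0.05, with 20 coloured points on the left and 7 on the right.

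All 5 enzymes of the kynurenine route from tryptophan were called lower in MASH vehicle than in chow livers, and none of the 5 was called between FGF21 and MASH vehicle livers. Tdo2, the tryptophan dioxygenase that opens the route, had 396, 254, 226 and 303 TPM in FGF21 livers, 316, 284, 327 and 237 TPM in MASH vehicle livers and 503, 592, 442 and 410.1 TPM in chow livers. The 2 groups on the diet overlapped, and every one of their libraries lay under the lowest chow library. Its log2 fold change was -0.74 ± 0.17 between MASH vehicle and chow (adjusted p = 0.00544) and -0.01 ± 0.17 between FGF21 and MASH vehicle (adjusted p = 0.990). Kynu, the kynureninase that cleaves kynurenines, had 55, 39.2, 41 and 45.5 TPM in FGF21 livers, 46.3, 39, 49 and 32.6 TPM in MASH vehicle livers and 93.1, 94.9, 80.9 and 75 TPM in chow livers. Again no library on the diet reached the chow range. The Kynu log2 fold change was -1.04 ± 0.15 between MASH vehicle and chow (adjusted p = 0.000180). Kmo, the kynurenine monooxygenase, had 74.7, 61.4, 62.7 and 72.7 TPM in FGF21 livers, 76.8, 62.2, 68 and 66.8 TPM in MASH vehicle livers and 95, 108, 97.7 and 93.1 TPM in chow livers, and fell in MASH vehicle livers by a log2 fold change of -0.52 ± 0.10 (adjusted p = 0.00212).

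Haao and Acmsd act at the branch between NAD synthesis and full oxidation. Haao, which makes the precursor of quinolinate, had 752, 781, 1015 and 748 TPM in FGF21 livers, 924, 757, 821 and 841 TPM in MASH vehicle livers and 1205, 1101, 1132 and 1017 TPM in chow livers. FGF21 replicate 3 came within 2 TPM of the lowest chow library without reaching it, and the other libraries on the diet were well below. Its log2 fold change between MASH vehicle and chow was -0.41 ± 0.11 (adjusted p = 0.0127). Acmsd, the decarboxylase that draws this precursor away from quinolinate and NAD, was the lowest of the 40 in every group, with 2.4, 1.9, 2.6 and 2.8 TPM in FGF21 livers, 3.6, 2.4, 2.2 and 2.4 TPM in MASH vehicle livers and 13.5, 8.5, 8.3 and 8.6 TPM in chow livers. Both groups on the diet lay far below chow, and the log2 fold change between MASH vehicle and chow was -1.54 ± 0.16 (adjusted p = 2.18e-05). Between FGF21 and MASH vehicle livers limma called 0 of the 5, and 0 of the 5 had an unadjusted p under 0.05, with log2 fold changes of -0.08 to 0.12 and a smallest adjusted p of 0.657. All 5 were called lower in FGF21 than in chow livers, by -0.44 ± 0.11 for Haao up to -1.63 ± 0.16 for Acmsd on the log2 scale.

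**Figure D3:**
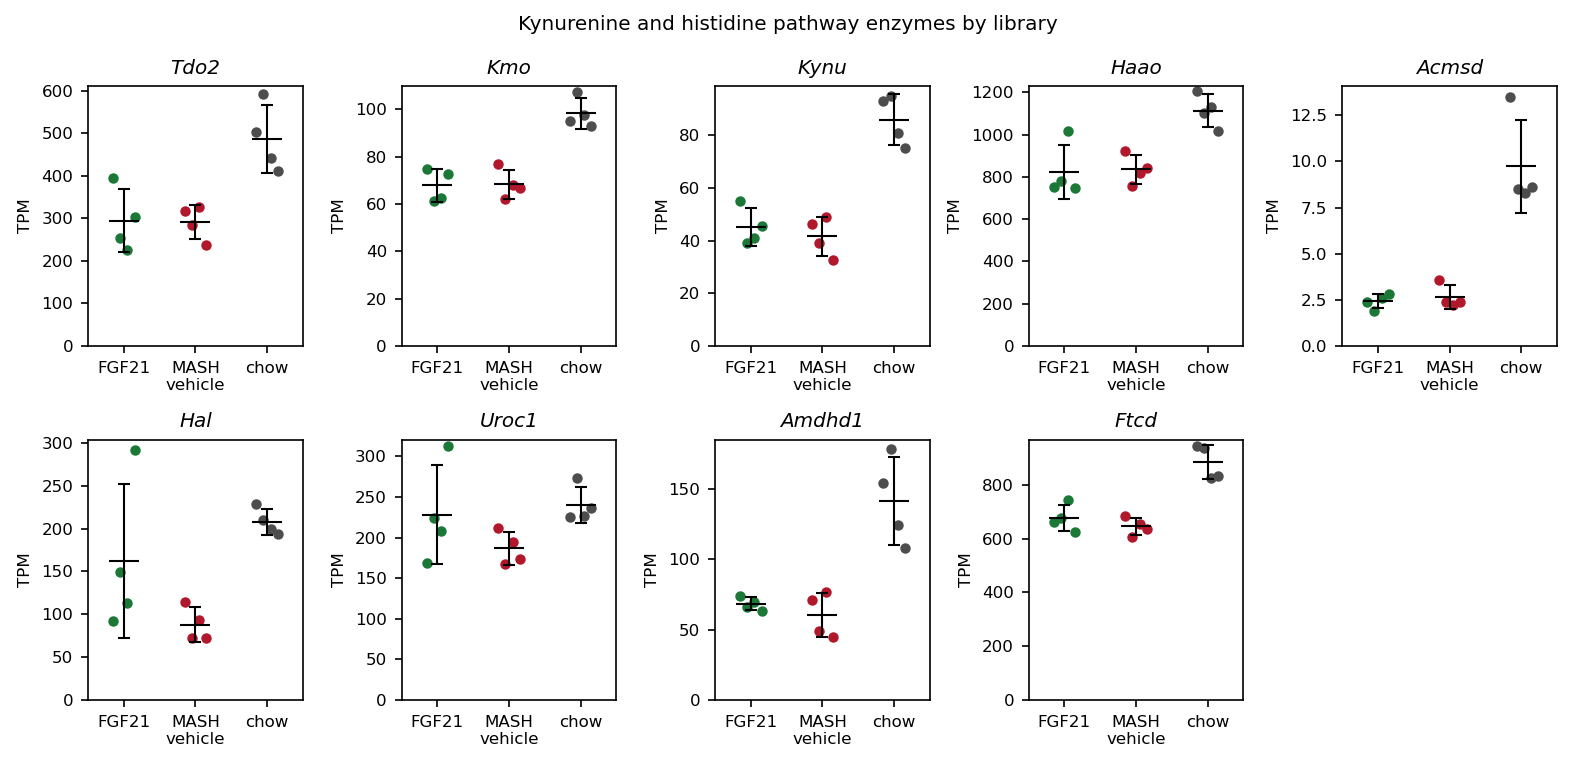
TPM of the 5 kynurenine enzymes (upper row) and the 4 histidine enzymes (lower row) in each library, with the group mean as a bar and the SD as whiskers (n = 4). The 5 kynurenine enzymes show 2 overlapping groups on the MASH diet under the chow group, while Hal and Uroc1 have FGF21 replicate 4 above every chow library.

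Because these enzymes were lower together on the diet, the 250 bases before the start of Tdo2 and Haao are shown, from the RefSeq promoter windows of build GRCm38.p6, read 5′ to 3′ on the strand of the gene. Capitals mark the letters of the motifs searched on both strands, which were TGACGTCA (a cAMP response element), CAAAGTCCA (an HNF4A site), TTGCGCAA (a C/EBP site), CACGTG (an E-box), TATAAA and CCAAT, none of which contains another. Tdo2 is at chr3:81975729-81975978 and Haao at chr17:83846791-83847040, both on the minus strand. In GENCODE M21 (GRCm38) both genes start further upstream, at chr3:81976202 and chr17:83847963. These windows therefore lie before the RefSeq start used but within the genes as annotated there.
Tdo2: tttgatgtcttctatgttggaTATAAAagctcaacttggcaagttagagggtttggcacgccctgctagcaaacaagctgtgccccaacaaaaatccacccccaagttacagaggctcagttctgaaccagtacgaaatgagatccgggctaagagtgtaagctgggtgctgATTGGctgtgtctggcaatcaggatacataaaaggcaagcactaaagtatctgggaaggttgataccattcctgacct
Haao: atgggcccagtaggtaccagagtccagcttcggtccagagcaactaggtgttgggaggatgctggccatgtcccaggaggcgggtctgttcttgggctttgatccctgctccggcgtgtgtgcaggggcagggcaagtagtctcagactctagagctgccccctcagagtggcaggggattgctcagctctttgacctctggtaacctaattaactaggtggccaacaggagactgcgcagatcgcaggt
In Tdo2 the capitals are TATAAA, 229 bases before the start, and CCAAT on the opposite strand, 78 bases before it. The Haao window holds none of the 6 motifs. Of the 40 members 34 had a window in the table, with 38 windows in all. CCAAT was in 55.3% of the member windows and in 33.8% of all 32851 windows, TATAAA in 15.8% and 12.4%, CACGTG in 2.63% and 6.02%, and CAAAGTCCA in 5.26% and 0.384%. The member share for CAAAGTCCA is a single site of Agxt2 that lies in both of its overlapping windows. TGACGTCA and TTGCGCAA were in none of the member windows, against 1.55% and 0.164% of all windows. These matches are letters in a window and were not tested for binding.

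Of the 4 enzymes of histidine breakdown, 3 were called lower in MASH vehicle than in chow livers. Between FGF21 and MASH vehicle livers limma called 0 of the 4, and 1, Hal, had an unadjusted p under 0.05 on the higher side. Hal, the histidase that removes the amino group, had 92.5, 149.7, 113 and 292 TPM in FGF21 livers, 114, 72, 93.5 and 71.8 TPM in MASH vehicle livers and 228, 209.6, 199 and 194 TPM in chow livers. MASH vehicle libraries all lay below chow, and the FGF21 libraries ran from within the MASH vehicle range to above the highest chow library. Its log2 fold change was -1.26 ± 0.27 between MASH vehicle and chow (adjusted p = 0.00369) and 0.76 ± 0.27 between FGF21 and MASH vehicle, which was not called (adjusted p = 0.0984). Without FGF21 replicate 1 the value between FGF21 and MASH vehicle was 0.98 (adjusted p = 0.0197), and without FGF21 replicates 1 and 3 it was 1.27 (adjusted p = 0.00372). Without FGF21 replicate 4, the highest, it was 0.43 (adjusted p = 0.189), and Hal was then called lower in FGF21 than in chow livers (-0.83, adjusted p = 0.00356).

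Amdhd1, the imidazolonepropionase of the same route, had 74.3, 66.4, 70.0 and 63.5 TPM in FGF21 livers, 70.8, 49.3, 77.1 and 44.7 TPM in MASH vehicle livers and 155, 178, 125 and 108 TPM in chow livers. No library on the diet reached the chow range. The log2 fold change of Amdhd1 was -1.22 ± 0.18 between MASH vehicle and chow (adjusted p = 0.000290) and -1.01 ± 0.18 between FGF21 and chow (adjusted p = 0.000986). Ftcd, which passes the last one-carbon unit of histidine to folate, had 664, 678, 743 and 626 TPM in FGF21 livers, 684, 607, 655 and 635 TPM in MASH vehicle livers and 944, 939, 826 and 834 TPM in chow livers. It was lower in MASH vehicle than in chow livers by a log2 fold change of -0.45 ± 0.091 (adjusted p = 0.00205), with no overlap. Uroc1, the urocanase between Hal and Amdhd1, averaged 228 ± 60.8 TPM in FGF21 livers, 187 ± 20.3 TPM in MASH vehicle livers and 240 ± 22.4 TPM in chow livers (SD, n = 4 each) and was not called, although its MASH vehicle libraries all lay below chow (log2 fold change -0.36 ± 0.16, adjusted p = 0.0821). Uroc1 was called lower in MASH vehicle than in chow livers under every other scaling run (adjusted p 0.0154 to 0.0416) and after removal of the GC trend (-0.75, adjusted p = 0.00178). Hal and Amdhd1 lie next to each other on chromosome 10 in opposite orientation, at chr10:93488768-93519304 and chr10:93523338-93540033 (GENCODE M21, GRCm38).

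The upstream windows of Hal and Ftcd, the first and the last enzyme of this route, are shown for the same reason as those of the kynurenine enzymes, with the same marking. Hal is at chr10:93488518-93488767 and Ftcd at chr10:76575398-76575647, both on the plus strand of GRCm38.p6.
Hal: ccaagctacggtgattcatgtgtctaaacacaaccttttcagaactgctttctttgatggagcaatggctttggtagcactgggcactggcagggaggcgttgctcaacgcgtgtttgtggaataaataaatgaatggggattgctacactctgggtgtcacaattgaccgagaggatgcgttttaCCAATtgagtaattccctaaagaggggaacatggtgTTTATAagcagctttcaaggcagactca
Ftcd: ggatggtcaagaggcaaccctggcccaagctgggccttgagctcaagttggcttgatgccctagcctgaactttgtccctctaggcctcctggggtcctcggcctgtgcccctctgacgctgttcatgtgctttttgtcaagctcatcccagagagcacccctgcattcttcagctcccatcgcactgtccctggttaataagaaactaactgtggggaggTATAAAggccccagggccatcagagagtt
Both windows hold a TATAAA close to the start, 28 bases before it and on the opposite strand in Hal, and 29 bases before it on the same strand in Ftcd. Hal also holds CCAAT 64 bases before the start.

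Of the 4 tyrosine enzymes, the first of the route was called lower on the diet and the second was called higher with FGF21. Tat, the aminotransferase that starts it, had 516, 436, 312 and 499 TPM in FGF21 livers, 443, 351, 144 and 234 TPM in MASH vehicle livers and 1233, 703, 948 and 530.2 TPM in chow livers. The 2 groups on the diet overlapped and stayed under the lowest chow library, which was replicate 4. The log2 fold change of Tat was -1.59 ± 0.32 between MASH vehicle and chow (adjusted p = 0.00228) and 0.68 ± 0.32 between FGF21 and MASH vehicle, which was not called (adjusted p = 0.201) and was 0.38 without MASH vehicle replicate 3, the lowest library. The call between FGF21 and chow (-0.91 ± 0.32, adjusted p = 0.0312) was lost without FGF21 replicates 2 or 3 or chow replicates 1 or 3 (adjusted p 0.0610 to 0.0987).

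Hpd, the dioxygenase of the second tyrosine step, was the most abundant of the 40 in every group. It had 3347, 4264, 4718 and 4712 TPM in FGF21 livers, 3557, 2466, 2893 and 3237 TPM in MASH vehicle livers and 3367, 4089, 3808 and 4066 TPM in chow livers. FGF21 replicate 1 was within the MASH vehicle range and the other 3 FGF21 libraries were above it. Hpd had a log2 fold change of 0.49 ± 0.14 between FGF21 and MASH vehicle (adjusted p = 0.0406), a call that held in 4 of the 12 fits with 1 library left out. It was lost without any of FGF21 replicates 2, 3 and 4, MASH vehicle replicates 2, 3 and 4 and chow replicates 2 and 3 (adjusted p 0.0505 to 0.110), and after the trend of the log2 values with the GC content of the genes was removed from each library, called removal of the GC trend below (adjusted p = 0.0540). Hgd, the homogentisate dioxygenase, averaged 436 ± 148 TPM in FGF21 livers, 357 ± 69.1 TPM in MASH vehicle livers and 397 ± 37.5 TPM in chow livers, and Fah, which ends the route, averaged 1181 ± 101, 1204 ± 97.5 and 1066 ± 128 TPM in the same groups (SD, n = 4 each). Neither was called in the fit of all 12 libraries on TPM as deposited, although each was called in a setting given further below.

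Of the serine and glycine enzymes, Sds was lower on the diet and Amt was higher with FGF21. Sds, the dehydratase that turns serine into pyruvate, had 142, 194, 204 and 391 TPM in FGF21 livers, 309, 144, 193 and 171 TPM in MASH vehicle livers and 354, 386, 522 and 346 TPM in chow livers. FGF21 replicate 4 was within the chow range, and all other libraries on the diet were below chow. The Sds log2 fold change was -1.01 ± 0.28 between MASH vehicle and chow (adjusted p = 0.0137). Between FGF21 and chow it was -0.87 ± 0.28 (adjusted p = 0.0210), a call lost without FGF21 replicates 1 or 2 or chow replicate 3 (adjusted p 0.0512 to 0.0602). The exons of Sds overlap those of Plbd2 on the opposite strand, and the strandedness of the libraries is not stated, so its values are uncertain.

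The glycine cleavage system splits glycine into carbon dioxide, ammonia and a one-carbon unit, and Amt, Gldc and Gcsh encode 3 of its proteins. Amt had 47.2, 53, 45.9 and 48 TPM in FGF21 livers, 39.3, 36.2, 37.6 and 36.7 TPM in MASH vehicle livers and 36.9, 37.3, 37.2 and 33.7 TPM in chow livers. All 4 FGF21 libraries were above all 8 others, which overlapped. Amt had a log2 fold change of 0.36 ± 0.089 between FGF21 and MASH vehicle (adjusted p = 0.0218) and 0.41 ± 0.089 between FGF21 and chow (adjusted p = 0.00272). The first of these calls was lost without FGF21 replicate 2 or any of MASH vehicle replicates 2, 3 and 4 (adjusted p 0.0538 to 0.0728). The second was lost after median-of-ratios scaling (adjusted p = 0.0837), quantile normalization (adjusted p = 0.210) and removal of the GC trend (adjusted p = 0.192). Gcsh averaged 42.1 ± 11 TPM in FGF21 livers, 52.3 ± 5.99 TPM in MASH vehicle livers and 67 ± 9.81 TPM in chow livers (SD, n = 4 each) and was lower in FGF21 than in chow livers (-0.68 ± 0.16, adjusted p = 0.00487). Gldc, at 81.1 ± 16, 64.3 ± 9.63 and 71.5 ± 16 TPM in the same groups, was not called. With array weights Gldc was called higher in FGF21 than in chow livers (0.40, adjusted p = 0.0381).

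Among the proline and ornithine enzymes, Prodh2 was called lower in MASH vehicle than in chow livers and Aldh4a1 was higher with FGF21. Prodh2, the hydroxyproline dehydrogenase, had 339.5, 358, 393 and 336 TPM in FGF21 livers, 356, 299, 324 and 333 TPM in MASH vehicle livers and 441, 411, 406 and 399 TPM in chow livers. Every library on the diet was below the chow range. Its log2 fold change was -0.34 ± 0.090 between MASH vehicle and chow (adjusted p = 0.0112) and -0.22 ± 0.090 between FGF21 and chow, which was not called (adjusted p = 0.0580). The Prodh2 value between FGF21 and chow depended on the scaling and was called at -0.43 after median-of-ratios scaling (adjusted p = 0.00370), -0.35 without Mup and mitochondrial genes (adjusted p = 0.00820), -0.26 after quantile normalization (adjusted p = 0.0246), -0.75 after removal of the GC trend (adjusted p = 0.000715) and -0.26 without FGF21 replicate 3 (adjusted p = 0.0340). Aldh4a1, the dehydrogenase that makes glutamate from the shared intermediate of proline and ornithine, had 530.0, 684, 623 and 993 TPM in FGF21 livers, 446, 454, 462 and 512 TPM in MASH vehicle livers and 462, 575, 544 and 611 TPM in chow livers. FGF21 replicate 4 was far above the rest, and all FGF21 libraries were above MASH vehicle. Aldh4a1 had a log2 fold change of 0.56 ± 0.16 between FGF21 and MASH vehicle (adjusted p = 0.0436). That call was kept in 2 of 12 fits, those without FGF21 replicate 1 or chow replicate 1, and lost in the other 10 (adjusted p 0.0507 to 0.113) and after removal of the GC trend (adjusted p = 0.0910). The Aldh4a1 call was also lost with no filter on low values (adjusted p = 0.0518). Its exons overlap those of Gm21969 on the same strand, which makes its values uncertain.

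Prodh, the proline dehydrogenase, averaged 261 ± 92 TPM in FGF21 livers, 192 ± 62.4 TPM in MASH vehicle livers and 301 ± 61.8 TPM in chow livers (SD, n = 4 each) and was not called (MASH vehicle against chow -0.68 ± 0.26, adjusted p = 0.0552). Prodh was called lower in MASH vehicle than in chow livers under every other scaling run, after removal of the GC trend (-1.04, adjusted p = 0.00628), in the fit of those groups alone, with array weights and in 4 of the 12 fits with 1 library left out. It was also called with a replicate block, although the replicate numbers were not taken to pair the samples. Oat, the ornithine aminotransferase, averaged 317 ± 59 TPM in FGF21 livers, 411 ± 175 TPM in MASH vehicle livers and 574 ± 112 TPM in chow livers. Oat was lower in FGF21 than in chow livers (-0.85 ± 0.29, adjusted p = 0.0256), a call lost without FGF21 replicates 1 or 2 or chow replicates 2 or 4 (adjusted p 0.0571 to 0.0627). Aass, which carries out the first steps of lysine breakdown, had 45.9, 42.3, 46.3 and 65.5 TPM in FGF21 livers, 65, 47.4, 55.5 and 51.7 TPM in MASH vehicle livers and 80.4, 96.1, 82.6 and 78.6 TPM in chow livers. All 8 libraries on the diet were below chow, with a log2 fold change of -0.62 ± 0.14 between MASH vehicle and chow (adjusted p = 0.00501) and -0.76 ± 0.14 between FGF21 and chow (adjusted p = 0.00115).

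Of the 10 branched chain enzymes, Dbt and Acadsb were lower on the diet and Bckdha was higher with FGF21, and the median log2 fold change between MASH vehicle and chow was -0.18 over the 10, against 0.19 over all genes. Acadsb, the acyl-CoA dehydrogenase of isoleucine breakdown, had 22, 14.3, 12.1 and 15.5 TPM in FGF21 livers, 15.5, 15.6, 18.4 and 12.4 TPM in MASH vehicle livers and 30.2, 46.3, 29.7 and 30.4 TPM in chow livers. Both groups on the diet were below chow and overlapped each other. The Acadsb log2 fold change was -1.08 ± 0.19 between MASH vehicle and chow (adjusted p = 0.000835). Dbt, the core subunit of the branched chain keto acid dehydrogenase complex, had 18.2, 22.6, 21 and 22.8 TPM in FGF21 livers, 21.9, 18.7, 18.5 and 21.8 TPM in MASH vehicle livers and 26.2, 27.3, 27.6 and 28.6 TPM in chow livers. The diet libraries all stood below chow by a narrow margin, with a log2 fold change of -0.42 ± 0.11 between MASH vehicle and chow (adjusted p = 0.00787) that lost its call after removal of the GC trend (-0.28, adjusted p = 0.193).

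Bckdha encodes the alpha subunit of the first component of the same complex. It had 531, 612, 648 and 520.1 TPM in FGF21 livers, 381, 473, 439.5 and 439 TPM in MASH vehicle livers and 436, 484, 525 and 542 TPM in chow livers. All FGF21 libraries were above all MASH vehicle libraries and overlapped with chow. The log2 fold change was 0.41 ± 0.11 between FGF21 and MASH vehicle (adjusted p = 0.0307), a call lost without FGF21 replicates 2 or 3 or MASH vehicle replicates 1, 3 or 4 (adjusted p 0.0656 to 0.104) and after removal of the GC trend (adjusted p = 0.200). Its exons overlap those of B3gnt8 on the opposite strand, so its values are uncertain. Bckdhb, the partner beta subunit, averaged 43 ± 7.54 TPM in FGF21 livers, 52 ± 5.48 TPM in MASH vehicle livers and 44.3 ± 3.59 TPM in chow livers (SD, n = 4 each). On TPM as deposited it was not called (-0.28 ± 0.13 between FGF21 and MASH vehicle, adjusted p = 0.192). Bckdhb was called lower in FGF21 than in chow livers after quantile normalization (-0.33, adjusted p = 0.0307) and removal of the GC trend (-0.33, adjusted p = 0.0360).

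Of the valine enzymes, Hibch, Hibadh and Aldh6a1 were each called lower in FGF21 than in chow livers and, in the main fit of all 12 libraries, in no other comparison. All 3 were also called lower in MASH vehicle than in chow livers after median-of-ratios scaling (adjusted p 0.00279 to 0.0296) and quantile normalization (adjusted p 0.0131 to 0.0395). Hibadh, the hydroxyisobutyrate dehydrogenase, averaged 124 ± 4.44 TPM in FGF21 livers, 148 ± 6.38 TPM in MASH vehicle livers and 168 ± 4.26 TPM in chow livers (SD, n = 4 each). These 3 ranges did not overlap, and the log2 fold change was -0.43 ± 0.080 between FGF21 and chow (adjusted p = 0.00114), -0.25 ± 0.080 between FGF21 and MASH vehicle (adjusted p = 0.0661) and -0.18 ± 0.080 between MASH vehicle and chow (adjusted p = 0.0889). After removal of the GC trend the value between FGF21 and chow was -0.01 (adjusted p = 0.956). With array weights Hibadh was called lower in MASH vehicle than in chow livers (-0.16, adjusted p = 0.0407). It was called lower in FGF21 than in MASH vehicle livers with array weights (-0.27, adjusted p = 0.0152) and after quantile normalization (-0.28, adjusted p = 0.0435). Hibch averaged 23.1 ± 6.52 TPM in FGF21 livers and 40.1 ± 12.5 TPM in chow livers (-0.76 ± 0.21, adjusted p = 0.00893). Aldh6a1, whose exons overlap those of Bbof1 on the opposite strand and whose values are uncertain, averaged 85.6 ± 5.62 TPM in FGF21 livers and 109 ± 12 TPM in chow livers (-0.34 ± 0.098, adjusted p = 0.0125). The Aldh6a1 call was lost after removal of the GC trend (adjusted p = 0.587).

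The 3 leucine enzymes were not called in the main fit of all 12 libraries. Ivd, the isovaleryl-CoA dehydrogenase, averaged 85.6 ± 22.1 TPM in FGF21 livers, 66 ± 9.48 TPM in MASH vehicle livers and 65.2 ± 5.72 TPM in chow livers (SD, n = 4 each). Mccc1 and Mccc2, the subunits of methylcrotonyl-CoA carboxylase, averaged 21.6 ± 5.98 and 45 ± 14 TPM in FGF21 livers, 21.8 ± 2.0 and 45.2 ± 4.45 TPM in MASH vehicle livers, and 18.6 ± 1.46 and 37.7 ± 3.52 TPM in chow livers. FGF21 replicate 1 was the lowest of the FGF21 libraries for all 3 and replicate 4 the highest. Without FGF21 replicate 1 all 3 were called higher in FGF21 than in chow livers, with log2 fold changes of 0.50 for Ivd (adjusted p = 0.00970), 0.35 for Mccc1 (adjusted p = 0.0302) and 0.42 for Mccc2 (adjusted p = 0.0156). Without FGF21 replicate 4 the values were 0.21 for Ivd, 0.02 for Mccc1 and 0.03 for Mccc2, none of them called (adjusted p 0.244 to 0.913). Ivd was also called higher in FGF21 than in MASH vehicle livers without FGF21 replicate 1 (0.49, adjusted p = 0.0315) and with array weights (0.38, adjusted p = 0.0475). With array weights it was called higher in FGF21 than in chow livers too (0.34, adjusted p = 0.0309).

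Of the 5 aminotransferases, Got1, Gpt and Agxt were called lower in MASH vehicle than in chow livers. Got1, the cytosolic aspartate aminotransferase, had 105, 109.7, 152 and 353 TPM in FGF21 livers, 119.8, 47.6, 51.5 and 90.3 TPM in MASH vehicle livers and 214, 268, 308 and 364 TPM in chow livers. The MASH vehicle libraries were all below chow, and FGF21 replicate 4 was far above the other 3 FGF21 libraries and within the chow range. Got1 had a log2 fold change of -1.96 ± 0.37 between MASH vehicle and chow (adjusted p = 0.00129), the most negative of the 40, and 1.13 ± 0.37 between FGF21 and MASH vehicle, which was not called (adjusted p = 0.0681). That value passed without FGF21 replicate 1 (1.32, adjusted p = 0.0414), and it was 0.74 without FGF21 replicate 4 (adjusted p = 0.154). It also passed in the fit with a replicate block (adjusted p = 0.0399), although the replicate numbers were not taken to pair the samples. Between FGF21 and chow Got1 was not called (-0.84 ± 0.37, adjusted p = 0.0686), but it was called lower without FGF21 replicate 4 (-1.22, adjusted p = 0.00553), with a replicate block (adjusted p = 0.0428), with array weights, after median-of-ratios scaling, without Mup and mitochondrial genes and after removal of the GC trend (adjusted p 0.0104 to 0.0370 in the last 4). Gpt, the cytosolic alanine aminotransferase, had 282, 316, 415 and 346 TPM in FGF21 livers, 455, 304, 355 and 481 TPM in MASH vehicle livers and 550.2, 609, 533 and 549 TPM in chow livers. No diet library reached the chow range, with a log2 fold change of -0.51 ± 0.15 between MASH vehicle and chow (adjusted p = 0.0184) and -0.73 ± 0.15 between FGF21 and chow (adjusted p = 0.00199). Gpt2, its mitochondrial counterpart, averaged 180 ± 50.6 TPM in FGF21 livers, 222 ± 26.9 TPM in MASH vehicle livers and 181 ± 18.6 TPM in chow livers (SD, n = 4 each) and was not called. Without FGF21 replicate 4 Gpt2 was called lower in FGF21 than in MASH vehicle livers (-0.51, adjusted p = 0.0248) and higher in MASH vehicle than in chow livers (0.29, adjusted p = 0.0479).

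Agxt and Agxt2, both enzymes that pass an amino group from alanine to glyoxylate, were called in opposite directions with FGF21. Agxt, which removes glyoxylate in the peroxisome or mitochondrion and so limits oxalate, had 385, 345, 427 and 334 TPM in FGF21 livers, 301, 171, 234 and 208 TPM in MASH vehicle livers and 667, 836, 644 and 684 TPM in chow livers. The 3 groups formed 3 separate ranges, with FGF21 between MASH vehicle and chow. The Agxt log2 fold change was 0.73 ± 0.16 between FGF21 and MASH vehicle (adjusted p = 0.0123), -1.65 ± 0.16 between MASH vehicle and chow (adjusted p = 9.16e-06) and -0.92 ± 0.16 between FGF21 and chow (adjusted p = 0.000630). The value between FGF21 and MASH vehicle missed the threshold after removal of the GC trend (0.58, adjusted p = 0.0637). Agxt2, a mitochondrial enzyme that also breaks down methylated arginines, had 40.6, 38.8, 42.9 and 46.9 TPM in FGF21 livers, 63, 54.4, 56.8 and 76.2 TPM in MASH vehicle livers and 48.2, 69.7, 56.4 and 58.2 TPM in chow livers. All FGF21 libraries were below all 8 others, which overlapped. Its log2 fold change was -0.55 ± 0.13 between FGF21 and MASH vehicle (adjusted p = 0.0214), a call lost without FGF21 replicate 2 or MASH vehicle replicates 1 or 4 (adjusted p 0.0593 to 0.0665). Between FGF21 and chow it was -0.44 ± 0.13 (adjusted p = 0.0149), lost without chow replicate 2 (adjusted p = 0.0519). The exons of Agxt2 overlap those of Gm21973 on the same strand, so its values are uncertain.

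The windows of these 2 enzymes are shown to set side by side the regions before a gene that was higher and one that was lower with FGF21. Agxt is at chr1:93134990-93135239 and the first of 2 Agxt2 windows is at chr15:10358283-10358532, both on the plus strand of GRCm38.p6, with the marking used above.
Agxt: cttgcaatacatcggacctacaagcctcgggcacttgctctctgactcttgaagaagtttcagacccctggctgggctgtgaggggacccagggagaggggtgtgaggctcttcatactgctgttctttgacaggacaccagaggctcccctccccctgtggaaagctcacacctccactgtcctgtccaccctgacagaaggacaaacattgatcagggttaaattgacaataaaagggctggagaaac
Agxt2: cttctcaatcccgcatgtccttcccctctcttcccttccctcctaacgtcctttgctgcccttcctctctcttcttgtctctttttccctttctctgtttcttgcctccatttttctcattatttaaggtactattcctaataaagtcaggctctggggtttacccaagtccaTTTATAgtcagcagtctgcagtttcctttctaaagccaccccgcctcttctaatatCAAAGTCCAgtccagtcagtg
The Agxt window holds none of the 6 motifs. The Agxt2 window holds CAAAGTCCA 21 bases before the start and TATAAA on the opposite strand 77 bases before it, and it is the only member gene with CAAAGTCCA.

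**Figure D4:**
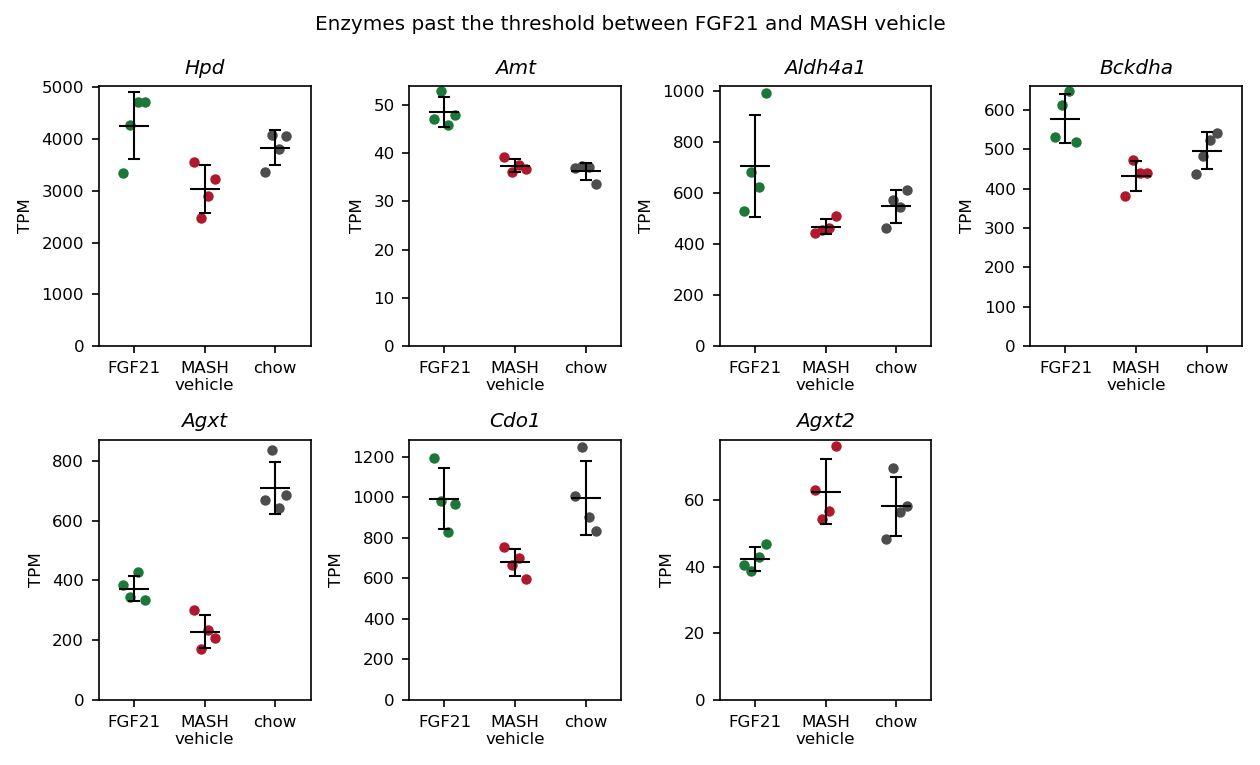
TPM in each library of the 7 enzymes called between FGF21 and MASH vehicle, with the group mean as a bar and the SD as whiskers (n = 4). In Agxt the 3 groups are separate with FGF21 in the middle, in Amt and Agxt2 the FGF21 libraries lie outside both other groups, and in Hpd FGF21 replicate 1 lies within the MASH vehicle range.

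In the sulfur pathway the enzymes that make and oxidise cysteine were lower in MASH vehicle than in chow livers, while Csad was the 1 member that was higher there. Cth, the cystathionine lyase that releases cysteine, had 86.4, 82.4, 86.6 and 117 TPM in FGF21 livers, 98, 76.4, 67.7 and 81.9 TPM in MASH vehicle livers and 333, 295, 288 and 285 TPM in chow livers. Both groups on the diet lay far under chow and overlapped each other. The log2 fold change of Cth was -1.89 ± 0.13 between MASH vehicle and chow (adjusted p = 2.76e-06), -1.69 ± 0.13 between FGF21 and chow (adjusted p = 9.43e-06) and 0.20 ± 0.13 between FGF21 and MASH vehicle, which was not called (adjusted p = 0.385). Cdo1, the cysteine dioxygenase, had 1194, 981, 829 and 965 TPM in FGF21 livers, 757, 664, 698 and 595 TPM in MASH vehicle livers and 1006, 1249, 901 and 834 TPM in chow livers. MASH vehicle libraries were below both other groups, which overlapped. The Cdo1 log2 fold change was -0.54 ± 0.14 between MASH vehicle and chow (adjusted p = 0.00967), 0.54 ± 0.14 between FGF21 and MASH vehicle (adjusted p = 0.0291) and -0.00 ± 0.14 between FGF21 and chow, which was not called (adjusted p = 0.990). The call between FGF21 and MASH vehicle was lost without FGF21 replicate 2 or any of MASH vehicle replicates 2, 3 and 4 (adjusted p 0.0615 to 0.0858) and, narrowly, after quantile normalization (adjusted p = 0.0509).

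Csad, the decarboxylase that turns the product of Cdo1 into the precursor of taurine, had 426, 1019, 494 and 340.0 TPM in FGF21 livers, 545, 798, 677 and 527 TPM in MASH vehicle livers and 275, 178, 409 and 139.5 TPM in chow livers. All MASH vehicle libraries were above chow, chow replicate 3 reached the FGF21 range, and FGF21 replicate 2 was the highest of all. The Csad log2 fold change was 1.44 ± 0.34 between MASH vehicle and chow (adjusted p = 0.00592) and 1.17 ± 0.34 between FGF21 and chow (adjusted p = 0.0128), the last of which was lost after removal of the GC trend (0.75, adjusted p = 0.117). The exons of Csad overlap those of Zfp740 on the opposite strand, so its values are uncertain.

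The FGF21 libraries varied more than the others for these enzymes. The median coefficient of variation over the 40 was 18.1% in FGF21 livers, 13.8% in MASH vehicle livers and 10.7% in chow livers. FGF21 replicate 4 was the highest of its group for 18 members and replicate 1 the lowest for 17. Without replicates 1 and 3, which held the pancreatic acinar transcripts, 10 members were called higher and 2 lower between FGF21 and MASH vehicle livers, which is 25% and 5% of the members, against 16.2% and 11.2% of all genes in that fit. The 7 calls of the full set were among these 12, and the other 5 were Hgd (0.61, adjusted p = 0.0274), Hal, Uroc1 (0.51, adjusted p = 0.0268) and Ivd (0.60, adjusted p = 0.0159) on the higher side and Gcsh (-0.58, adjusted p = 0.0142) on the lower side. In the same fit Tat, Sds, Oat and Dbt were no longer called lower in FGF21 than in chow livers.

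Other genes of amino acid metabolism were read from lists of the same pathways. Of 54 other catabolic enzymes tested, MASH vehicle livers had 3 higher and 13 lower than chow livers, with a median log2 fold change of -0.19, and 6 were higher and 3 lower in FGF21 than in MASH vehicle livers. The lower ones included Gnmt, which consumes S-adenosylmethionine to methylate glycine (1172 ± 184 TPM in MASH vehicle livers and 3884 ± 216 TPM in chow livers, -1.74 ± 0.14, adjusted p = 3.40e-06). The higher ones included Dglucy, a glutamate cyclase (0.89 ± 0.20, adjusted p = 0.00444).

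With FGF21 the strongest call of these other enzymes was Cbs, the synthase that makes the substrate of Cth. Cbs had 989.6, 1156, 1006 and 1079 TPM in FGF21 livers, 574, 608, 539 and 475 TPM in MASH vehicle livers and 869, 804, 756 and 779 TPM in chow livers. The 3 ranges were separate, with FGF21 the highest, and the log2 fold change was 0.95 ± 0.099 between FGF21 and MASH vehicle (adjusted p = 0.000173). Pipox, an oxidase of sarcosine and pipecolate, was also higher in FGF21 than in MASH vehicle livers (0.55 ± 0.13, adjusted p = 0.0188), while Asrgl1, an asparaginase, and Hnmt, the histamine methyltransferase, were lower (-0.41 ± 0.097, adjusted p = 0.0177, and -0.90 ± 0.22, adjusted p = 0.0212). Levels of Asrgl1 were low, at 1.5 to 2.0 TPM in FGF21 and 2.5 to 3.0 TPM in MASH vehicle livers.

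Of 6 urea cycle genes, 5 were lower in MASH vehicle than in chow livers and limma called 0 between FGF21 and MASH vehicle livers, where 1 had an unadjusted p under 0.05. Asl, the argininosuccinate lyase, had the smallest p (402 ± 55.1 TPM in MASH vehicle livers and 1032 ± 115 TPM in chow livers, -1.36 ± 0.16, adjusted p = 4.18e-05) and was not called between FGF21 and MASH vehicle livers (0.45 ± 0.16, adjusted p = 0.0863). Of 21 amino acid transporters, MASH vehicle livers had 4 higher and 7 lower than chow livers, and 3 were higher and 1 lower in FGF21 than in MASH vehicle livers. For both lists, the shares over all genes were 29.5% higher and 7.84% lower in the first comparison, and 6.02% and 4.28% in the second. The mitochondrial ornithine carrier Slc25a15 was lower in MASH vehicle than in chow livers (-0.98 ± 0.13, adjusted p = 0.000106), and the neutral amino acid transporter Slc1a4 was lower in FGF21 than in MASH vehicle livers (-0.73 ± 0.14, adjusted p = 0.00724). Levels of Slc1a4 were low, at 1.2 to 1.8 TPM in FGF21, 2.6 to 4.0 TPM in MASH vehicle and 0.8 to 1.5 TPM in chow livers.

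Of 15 cofactor and kinase genes, MASH vehicle livers had 2 higher and 3 lower than chow livers. Bckdk, the kinase that inactivates the branched chain complex of Bckdha, Bckdhb and Dbt, had 24.2, 30.3, 25.8 and 27.5 TPM in FGF21 livers, 19.6, 25.1, 19.3 and 22.9 TPM in MASH vehicle livers and 10.7, 15.2, 13 and 10.6 TPM in chow livers. All 8 libraries on the diet were above chow, with log2 fold changes of 0.77 ± 0.14 between MASH vehicle and chow (adjusted p = 0.000875) and 1.07 ± 0.14 between FGF21 and chow (adjusted p = 0.000119), and 0.30 ± 0.14 between FGF21 and MASH vehicle, which was not called (adjusted p = 0.177). Of 13 regulators, MASH vehicle livers had 2 higher and 1 lower than chow livers, and 2 were higher in FGF21 than in MASH vehicle livers. The shares over all genes, to set beside both lists, were 29.5% higher and 7.84% lower in the first comparison, and 6.02% higher in the second. Klf15, a transcription factor known in mouse liver for driving amino acid breakdown genes, had 266, 282, 202 and 274 TPM in FGF21 livers, 177, 142, 119 and 145 TPM in MASH vehicle livers and 241, 183, 282 and 201 TPM in chow livers. MASH vehicle libraries were below both other groups, which overlapped. The Klf15 log2 fold change was 0.81 ± 0.16 between FGF21 and MASH vehicle (adjusted p = 0.00845) and -0.63 ± 0.16 between MASH vehicle and chow (adjusted p = 0.00836).

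Many of these enzymes are known to be concentrated in periportal hepatocytes. Of 13 periportal markers, 8 were lower and 2 (Apoa4 and Cdh1) higher in MASH vehicle than in chow livers, and 5 of the 13 (Ass1, Asl, Cps1, Arg1 and Gls2) are urea cycle or catabolic genes already counted above. Apoa4 was 10217 to 13540 TPM in MASH vehicle livers and 528 to 1704 TPM in chow livers, and the other 12 summed to 7584 to 10180 TPM in MASH vehicle livers and 14868 to 17394 TPM in chow livers, where Ass1 was the largest of them. Of 13 pericentral markers, 1 was higher and 2 were lower in the same comparison. Of the periportal markers 0 were called higher and 2 lower in FGF21 than in MASH vehicle livers, and limma called 0 pericentral markers there, where 3 were higher and 2 lower at an unadjusted p under 0.05. The part of these zonal genes in the members' values was not tested.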

How the data were processed

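RNA was extracted with a Qiagen kit and enriched with oligo-dT, per the labels' protocols. Reads were handled with Trim Galore 6.10 and Salmon 1.10.2 on build mm10, per the submitters' processing notes. How transcripts were joined to genes, and which annotation and gene filter were used, is not given in the sources used. The deposited table is named FPKM, but each column sums to just under 1000000, so the authors' values were read as TPM rounded to 1 decimal, and the test planned for FPKM was used on TPM. All 12 columns matched a sample by library name, with 0 left over.

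Genes with at least 1 TPM in at least 4 libraries were fitted as log2(TPM + 1) with limma 3.58.1 (R 4.3.3, trend and robust options, 3 groups in 1 model, two-sided, Benjamini-Hochberg over 10988 genes), and the script was tested on simulated data. The settings varied were the pseudocount (0.1 and 5), the filter (none, and 5 TPM), the scaling, removal of Mup and mitochondrial genes, removal of the GC trend (GC known for 98.4% of genes tested and for all 40 members), fits of the compared groups only, array weights, a replicate block and libraries left out. Exon overlaps came from GENCODE M21 (GRCm38, also called mm10) and upstream sequences from RefSeq (GRCm38.p6).

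The members and lists were chosen with earlier results of these data known. All 40 members may be named. Values in every library are given for called members in order of pathway, taking first those whose groups do not overlap. From the other catabolic enzymes the rule takes the 2 called genes with the smallest p per direction, in the comparison of MASH vehicle with chow and in that of FGF21 with MASH vehicle, and from the transporters and the urea cycle the called gene with the smallest p in each. Bckdk and Klf15 are always named. A few genes, 1 motif and 1 upstream sequence that these rules take are not reported here.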

Additional observations from a re-analysis of the deposited data

Results flagged for a closer look

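Of 120 sets of 4 libraries (40 enzymes in 3 groups), 7 had a library set off from the other 3 by more than Dixon's 95% critical value for the gap over the range. Chance flags about 1 in 20 such sets. In FGF21 livers, Haao was 1015.3 TPM in replicate 3, against 748.2 to 781.2 TPM in the other 3, and Cth was 116.9 TPM in replicate 4, against 82.4 to 86.6 TPM. In MASH vehicle livers, Acmsd was 3.6 TPM in replicate 1, against 2.2 to 2.4 TPM. In chow livers, Acmsd was 13.5 TPM in replicate 1, against 8.3 to 8.6 TPM, Amt was 33.7 TPM in replicate 4, against 36.9 to 37.3 TPM, Hibadh was 174.0 TPM in replicate 2, against 165.2 to 165.9 TPM, and Acadsb was 46.3 TPM in replicate 2, against 29.7 to 30.4 TPM.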

How the results depend on the processing

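With 1 library left out, members called were 1 to 2 higher and 18 to 23 lower between MASH vehicle and chow, 1 to 9 higher and 0 to 2 lower between FGF21 and MASH vehicle, and 2 to 6 higher and 18 to 23 lower between FGF21 and chow. Calls over all genes in these fits were 2317 to 3739 higher and 487 to 1195 lower between MASH vehicle and chow, 285 to 1274 higher and 228 to 943 lower between FGF21 and MASH vehicle, and 3362 to 4446 higher and 950 to 2028 lower between FGF21 and chow. The members' medians were -0.46 to -0.38, 0.03 to 0.13 and -0.43 to -0.36 in the same order. Median-of-ratios scaling gave 29 members called lower between MASH vehicle and chow (median -0.65, all genes 1592 higher and 1980 lower), and 1 called higher between FGF21 and chow (median -0.62, all genes 2551 and 2681). Quantile normalization gave medians of -0.54 between MASH vehicle and chow (all genes 1683 and 1986) and -0.57 between FGF21 and chow (all genes 2528 and 2628). It called 2 members lower between FGF21 and MASH vehicle, or 5%, against 4.4% of all genes. Without Mup and mitochondrial genes the medians were -0.54 in both comparisons with chow. Removal of the GC trend gave 1397 higher and 1514 lower calls over all genes between MASH vehicle and chow (members' median -0.59). Between FGF21 and MASH vehicle it gave 2 members called higher, or 5%, against 4.54% of all genes. Between FGF21 and chow it gave 0 members called higher (all genes 1638 higher, members' median -0.53). The same setting turned Amt between MASH vehicle and chow to -0.25 (adjusted p = 0.0449), and Fah and Bckdha between FGF21 and chow to -0.31 (adjusted p = 0.0393) and -0.32 (adjusted p = 0.0270). Fits of only the 2 groups compared gave 2 members called higher between MASH vehicle and chow, or 5%, against 36.9% of all genes. They gave 2 members called higher between FGF21 and MASH vehicle (all genes 348 higher and 283 lower). Array weights gave 1355 lower calls over all genes between MASH vehicle and chow, and 1415 higher and 1054 lower between FGF21 and MASH vehicle with 4 members lower. They called 6 members higher between FGF21 and chow, or 15%, against 43.1% of all genes. The stricter filter gave 1030 lower calls over all genes between FGF21 and chow, or 13.6% of the 7576 genes it kept, against 14.2% of 10988. Without FGF21 replicates 1 and 3, all genes gave 1767 higher and 1221 lower calls between FGF21 and MASH vehicle, with 10 members higher and 2 lower. In that fit 6 members were higher between FGF21 and chow, or 15%, against 38.7% of all genes. The cause of these shifts was not tested. The other pseudocounts, no filter and limma without trend and robust options kept every count of member calls within 1.5 times. Same-numbered libraries did not deviate together throughout (r of deviations 0.0877 to 0.284 between FGF21 and MASH vehicle, -0.123 to 0.405 between FGF21 and chow, -0.176 to 0.403 between MASH vehicle and chow), so the numbers were not taken to pair the samples. The replicate block gave 1 member called higher and 20 lower between MASH vehicle and chow (2.5% and 50%, all genes 33% and 9.63%). Between FGF21 and MASH vehicle it gave 7 higher and 1 lower (17.5% and 2.5%, all genes 8.72% and 5.78%). Between FGF21 and chow it gave 3 higher and 22 lower (7.5% and 55%, all genes 39.9% and 15.7%). The genes that gained a call were Prodh, Got1 and Aldh4a1. Depth could not be weighed, since TPM keep none.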
